A study of Mus musculus with 2 samples.

Results

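The genes described here build the sperm tail: the fibrous sheath, the outer dense fibres, the mitochondrial sheath and the axoneme, the microtubule core that bends. They were chosen by name from a list of 41 symbols, and a listed gene was a member if its symbol was among the 41459 genes of both count matrices. The matrices held 39 of the 41 symbols. The other two, Dnai1 and Dnai2, are given there under their older symbols Dnaic1 and Dnaic2, so they were left out of all counts and are described once, apart. The cells came from whole testes of 1 wild-type (WT, Rad21l+/+) and 1 RAD21L knockout (KO, Rad21l-/-) mouse, both male and 55 days old, dissociated to single cells and sequenced from droplets, each meant to hold 1 cell. RAD21L is a subunit of the cohesin ring that is made in meiotic cells, and the KO lacks it in every cell of the body. There was 1 library per genotype and no replicate, so no test between genotypes was possible, and every interval below is a 95% interval that covers counting error only. All differences below are between these libraries, and how far 2 mice of the same genotype would differ is unknown.

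A sperm tail is built in spermatids, after meiosis, when a centriole grows an axoneme of outer microtubule doublets around a central pair. Dynein arms on the doublets make them slide, radial spokes and the central pair govern the bend, tektins line the doublets, and the dense fibres and the fibrous sheath wrap the core. Many of these genes are transcribed in pachytene spermatocytes, long before the tail exists, and others only in haploid cells. Loss of RAD21L stops male germ cells in meiotic prophase, so the KO testis offers a view of the flagellar transcripts that are made before that stop.

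Cells were assigned to germ stages and somatic types by the share of their unique molecular identifiers (UMIs, each 1 captured transcript) that came from marker genes, none of which is a member. The late prophase gate took cells with at least 0.05% of UMIs and at least 3.0 UMIs from 8 found markers of zygotene and early pachytene, such as Rad51ap2, Meiob and Majin, and too few pachytene or spermatid markers for the later gates. In WT the gates held 98 spermatogonia, 71 early prophase, 35 late prophase and 484 pachytene cells, 1716 round and 1241 elongating spermatids and 51 somatic cells. In KO they held 590 spermatogonia, 485 early prophase, 186 late prophase and 3709 somatic cells, most of them Sertoli (1899), Leydig (692) and stromal (630) cells. No KO cell passed the pachytene or the elongating spermatid gate, which at 0 of 6381 cells and a limit of 3.0 counts allows a share of up to 0.0470%, and 1 passed the round spermatid gate. Late prophase markers made up 0.118% of UMIs in the KO late gate and 0.112% in the WT late gate, whereas pachytene markers made up 0.198% and 0.287%, so the gates were matched on the first list and not on the second. Rad21l itself was at 20.6 CPM (15.2 to 27.3) in KO and 116 CPM (83.8 to 156) in WT early prophase cells, where CPM is UMIs per 1000000 UMIs of the gated cells. Which part of the gene its remaining KO UMIs came from is not given in the sources used here.

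Short upstream sequences are shown for 5 members chosen to contrast those with and without the letters GTTGCC. These are the core site bound by RFX factors, which switch on genes of cilia and flagella. Each is the 250 bases before a RefSeq transcription start in build GRCm38.p6, 5′ to 3′ on the gene's strand, with GTTGCC or its reverse complement GGCAAC in capitals. The intervals are chr11:72361883-72362132 (minus strand) for Tekt1, chr16:44394549-44394798 (plus strand) for Cfap44, chr1:69826720-69826969 (plus strand) for Spag16, chr15:31453690-31453939 (minus strand) for Ropn1l and chrX:79517352-79517601 (minus strand) for Cfap47.
Tekt1: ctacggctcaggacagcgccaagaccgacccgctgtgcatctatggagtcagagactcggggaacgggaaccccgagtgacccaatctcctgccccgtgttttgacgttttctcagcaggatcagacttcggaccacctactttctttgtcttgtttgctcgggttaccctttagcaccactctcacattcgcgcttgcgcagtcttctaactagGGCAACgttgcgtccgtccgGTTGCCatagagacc
Cfap44: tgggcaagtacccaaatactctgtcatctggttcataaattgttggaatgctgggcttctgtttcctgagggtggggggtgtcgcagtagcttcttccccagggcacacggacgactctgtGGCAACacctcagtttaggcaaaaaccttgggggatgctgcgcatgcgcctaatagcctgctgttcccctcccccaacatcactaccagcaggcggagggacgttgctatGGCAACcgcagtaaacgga
Spag16: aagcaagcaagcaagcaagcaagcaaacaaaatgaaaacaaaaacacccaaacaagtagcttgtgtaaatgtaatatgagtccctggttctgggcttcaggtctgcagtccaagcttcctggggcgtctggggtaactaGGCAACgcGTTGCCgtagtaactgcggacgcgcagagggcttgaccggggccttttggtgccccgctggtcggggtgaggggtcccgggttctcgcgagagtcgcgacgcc
Ropn1l: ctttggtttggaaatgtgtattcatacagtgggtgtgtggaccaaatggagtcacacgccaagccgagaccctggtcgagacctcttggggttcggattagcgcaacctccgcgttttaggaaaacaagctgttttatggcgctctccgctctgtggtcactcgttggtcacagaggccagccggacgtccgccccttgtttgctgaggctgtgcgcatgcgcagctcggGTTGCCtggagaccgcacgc
Cfap47: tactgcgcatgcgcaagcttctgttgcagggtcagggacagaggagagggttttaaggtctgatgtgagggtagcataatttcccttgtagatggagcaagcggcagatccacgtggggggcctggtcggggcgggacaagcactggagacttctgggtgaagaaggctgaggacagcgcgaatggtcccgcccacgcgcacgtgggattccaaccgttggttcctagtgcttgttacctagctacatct
Tekt1, Cfap44 and Spag16, which had 1 UMI, 0 UMIs and 6 UMIs in KO late prophase cells, carry 2 matches each. Spag17, not shown, also had 6 UMIs there but was above somatic level by the rule given below, and it carries none. Ropn1l, which was well above somatic cells there, carries 1, and Cfap47 carries none. Another Tekt1 start, not shown, also carries none. The table of promoters matched 32 of the 39 members, with 44 starts. GTTGCC on either strand was found upstream of 8 of the 44 member starts (18.2%) and of 10.4% of all 32851 starts. Among members above somatic level in KO late prophase 1 of 23 starts held it (4.35%), against 7 of 21 starts of the other members (33.3%). Starts of 1 gene can overlap, and by gene the counts were 1 of 15 and 6 of 17, a contrast noticed after the values were seen and not tested. Most genes of the second set thus held no match, unlike Tekt1, Cfap44 and Spag16 as shown. The full CREM site TGACGTCA was in none of the 44 and in 1.55% of all starts, and its shorter form TGACG, which lies within it, in 13.6% and 17.8%. The MYB core AACNGNC was in 34.1% of member starts and 27.7% of all. A match is a run of letters and does not show that a factor binds there.

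The members' summed level rose along the germ line in both testes, from different floors. In KO the 39 members together were at 249 CPM in somatic cells, 274 CPM in spermatogonia, 369 CPM in early prophase and 2757 CPM (2656 to 2860) in late prophase. The late prophase sum was 11.1 times the somatic sum (10.5 to 11.6) and 7.48 times the early prophase sum (6.93 to 8.08), so nearly all of the KO increase lay between the gates of early and late prophase. In WT the sums were 5309 CPM in somatic cells, 5362 CPM in spermatogonia, 6651 CPM in early prophase, 10280 CPM in late prophase, 23259 CPM in pachytene cells, 25669 CPM in round and 34732 CPM in elongating spermatids. The WT rise after the pachytene gate rested on Odf1, Oaz3, Smcp and Akap4. Without them the other 35 members summed to 22835 CPM in pachytene cells, 21168 CPM in round and 18055 CPM in elongating spermatids. The WT somatic level came from 51 cells of types that make no sperm tail, in a library rich in spermatids, and it differed little from that of WT spermatogonia. The markers of elongating spermatids moved with it: protamine and transition protein genes made up 0.684% of WT somatic UMIs and 0.000248% of KO somatic UMIs. WT late prophase cells stood only 1.94 times above their somatic cells (1.82 to 2.06), against the 11.1 times in KO.

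**Figure D1:**
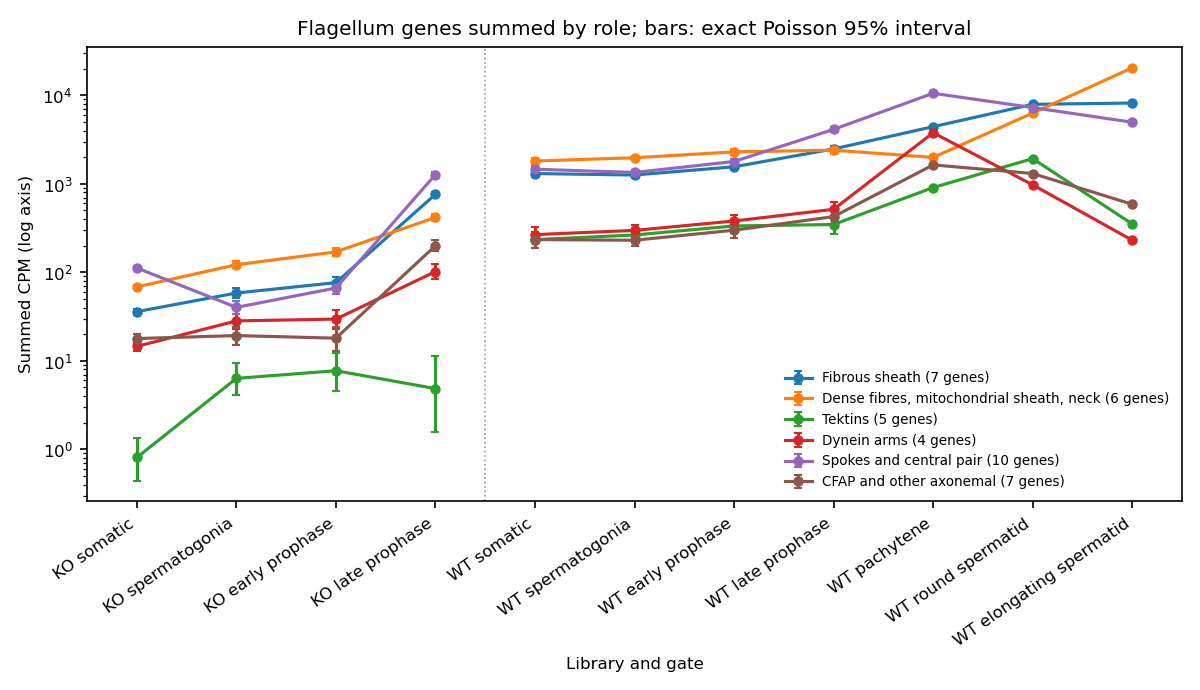
Summed CPM of the members of each of 6 role groups (log axis) by library and gate. Points are sums over all gated cells of 1 library and bars are exact Poisson 95% intervals, and the dotted line separates KO from WT. In KO every group but the tektins stands higher in late prophase than in the gates to its left, and in WT the somatic points lie far above those of KO.

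A member was called in a gate if its CPM was at least 2.0 times that of the somatic cells of the same library, with somatic counts under 3.0 set to 3.0, and if the exact Poisson intervals did not overlap. By that rule 18 of 39 members (46.2%) were called in KO late prophase, beside 20.4% of the 17470 genes with at least 10 UMIs in the cells compared. Of the 39 members 26 had at least 10 UMIs there, 13 had fewer, and 9 had 0 UMIs in KO late prophase. Members with fewer could still be called, here and in the counts below, whereas every background share leaves such genes out. The median fold over all 39 members was 5.6, which is the value that the somatic floor of 3.0 UMIs gives a member with 1 UMI in KO late prophase. It includes the 13 members with fewer UMIs, so it cannot be set against the median of 0.794 over genes with at least 10 UMIs. In KO spermatogonia 10 members were called (25.6%, background 25.0%) and in KO early prophase 8 (20.5%, background 22.8%), shares of all 39 members near the background. Only 25 and 23 of the 39 had at least 10 UMIs in those comparisons. Between KO late and KO early prophase, 12 members were called higher in the later gate (30.8%, background 10.7%). The count of 18 fell when single somatic types were used, each with fewer UMIs than the pool and so wider intervals. Against each of the KO Sertoli, Leydig, stromal and myeloid cells taken singly, 11 members stayed called, and Akap3, Cabyr, Dnah1, Spag17, Spef2, Cfap61 and Cfap43, which had 4 to 13 UMIs in KO late prophase, did not. Akap3 had 0 UMIs in each of these types. In myeloid cells 0 UMIs allows up to 3.68 CPM, above the lower bound of 2.73 CPM for Akap3 in KO late prophase.

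**Figure D2:**
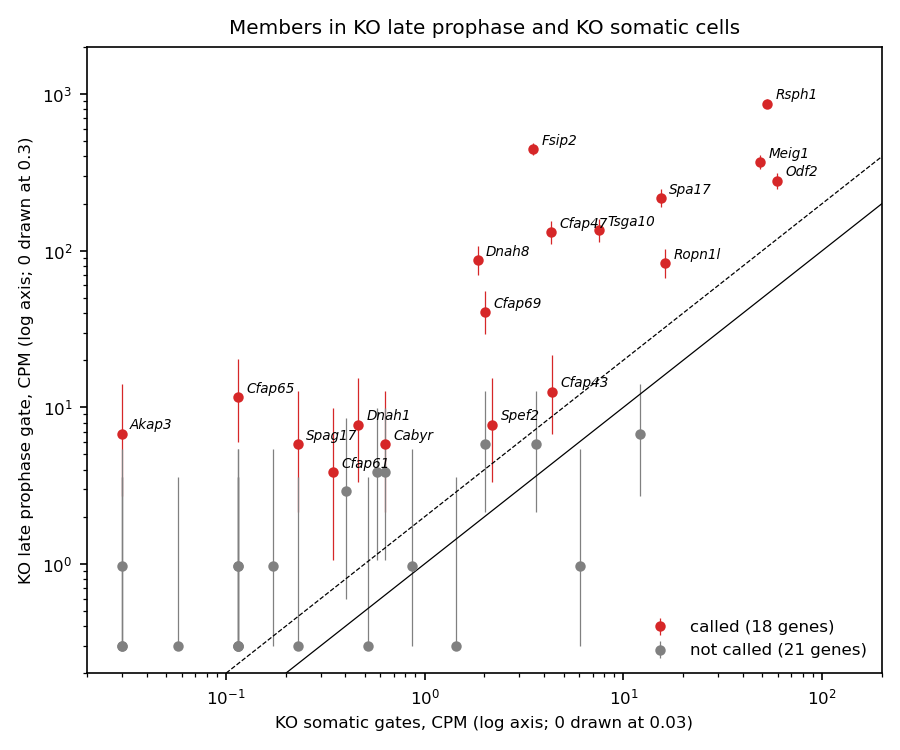
Level of each of the 39 members in KO late prophase cells against KO somatic cells, in CPM on log axes, with exact Poisson 95% intervals on the vertical axis. The solid line marks equal levels and the dashed line 2-fold. The 18 called members are red and named, with Rsph1 highest at 869 CPM, and 9 members sit at 0 on the vertical axis, drawn at the bottom.

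Fibrous sheath genes were 5 of 7 called, and their sum was 761 CPM in KO late prophase against 35.9 CPM in KO somatic cells (21.2 times, 19.0 to 23.6). Fsip2, which encodes a fibrous sheath-interacting protein, was at 3.52 CPM in KO somatic cells, 3.70 CPM in spermatogonia, 23.6 CPM in early prophase and 446 CPM (406 to 489, 460 UMIs) in late prophase, a ratio to somatic cells of 127 (96.8 to 168). In WT it stood at 162 CPM in somatic cells, 150 CPM in spermatogonia, 205 CPM in early prophase, 446 CPM (358 to 548) in late prophase, 1002 CPM in pachytene cells, 1819 CPM in round and 167 CPM in elongating spermatids. Fsip2 was thus at the same CPM in the late prophase gates of both libraries as measured, but at 443 CPM in KO and 284 CPM in WT with the somatic level of each taken off. The WT somatic level may not match the background of the WT late prophase gate, as given below. Fsip2 was back at the WT somatic level in elongating spermatids. Spa17, a sperm surface and sheath protein with a docking domain for A-kinase anchors, was at 15.4, 26.1, 30.5 and 217 CPM (190 to 248) in the same 4 KO gates. Its WT levels ran from 279 CPM in somatic cells through 614 CPM in late prophase and 821 CPM in pachytene cells to 3145 CPM in elongating spermatids. Ropn1l, which encodes a ropporin-like partner of the same anchors, was at 16.2, 24.0, 20.2 and 83.4 CPM (66.7 to 103) in KO, and at 896 CPM in WT late prophase, 2464 CPM in pachytene cells and 2581 CPM in round spermatids. These 3 genes carried nearly all of the sheath sum in KO.

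The anchoring scaffolds of the sheath had few UMIs in KO late prophase. Akap4, the most abundant sheath protein of the mature tail and an X-linked gene, had 0 UMIs in KO late prophase (upper bound 3.58 CPM) and 0 UMIs in early prophase. In WT it was at 53.1 CPM in pachytene cells, below the 207 CPM of somatic cells, and then at 615 CPM in round and 2454 CPM in elongating spermatids. Akap3, its partner scaffold, had 7 UMIs in KO late prophase (6.79 CPM, 2.73 to 14.0) and 0 UMIs in KO somatic cells, which was 39.2 times a floor of 3.0 UMIs over all somatic cells, with the exact interval of the ratio starting at 24.2. Cabyr, a calcium-binding sheath protein, had 6 UMIs (5.82 CPM against 0.635 CPM in somatic cells), and Ropn1, the second ropporin, had 1 UMI. In WT all 4 were lower in pachytene than in somatic cells and at least 13.1 times higher in spermatids, pooled over round and elongating, than in pachytene cells.

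Of the 6 genes of the dense fibres, the mitochondrial sheath and the neck, 2 were called. Odf2, a dense fibre component that also serves at centrioles in other cells, was at 59.0, 101, 87.6 and 280 CPM (249 to 315) in KO somatic cells, spermatogonia, early and late prophase. In WT it was at 862 CPM in late prophase, 1301 CPM in pachytene cells and 5340 CPM in elongating spermatids, against 550 CPM in somatic cells. Odf2 was therefore detected in every KO gate, with its highest somatic level, 78.5 CPM, in Sertoli cells. Tsga10, a protein of the tail's neck and sheath, was at 7.57, 18.7, 80.3 and 135 CPM (113 to 159) in the KO gates and at 59.8, 56.2, 181 and 253 CPM in the matching WT gates, then 296 CPM in pachytene cells, 273 CPM in round and 181 CPM in elongating spermatids. Its level in KO late prophase was 1.68 times that in early prophase, a smaller step than the 18.9 times of Fsip2 and the 31.7 times of Rsph1, since much of its level was already there in early prophase.

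The other four genes of that group were at 1 UMI or fewer in KO late prophase and highest in WT elongating spermatids. Smcp, a cysteine-rich protein of the mitochondrial capsule, had 1 UMI in that KO gate. Its WT levels were 588 CPM in somatic cells, 555 CPM in late prophase, 193 CPM in pachytene cells, 2332 CPM in round and 9594 CPM in elongating spermatids, the most CPM of any member in spermatids. Oaz3, the testis form of ornithine decarboxylase antizyme, also had 1 UMI in KO late prophase, and Odf1, a dense fibre protein, and Spem1, which acts when the spermatid sheds its cytoplasm, had 0. In WT these 4 were 12.5 to 34.7 times higher in spermatids than in pachytene cells.

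None of the 5 tektin genes was called in KO late prophase. Tekt1 had 1 UMI, Tekt2 had 4 and Tekt3, Tekt4 and Tekt5 had 0 of 1030590 UMIs, and their sum was 4.85 CPM (1.58 to 11.3). That sum was 0.809 CPM in KO somatic cells, 6.34 CPM in spermatogonia and 7.73 CPM in early prophase, so a low level was there before late prophase. Tekt2 (16 UMIs) and Tekt4 (5 UMIs) were called in KO spermatogonia, and Tekt1 (4 UMIs) and Tekt2 (12 UMIs) in KO early prophase. In WT all 5 were called in pachytene cells over somatic cells. Tekt1 went from 129 CPM in WT late prophase to 456 CPM in pachytene cells, 588 CPM in round and 105 CPM in elongating spermatids, against 84.7 CPM in somatic cells. Tekt2 went from 59.4 to 125, 524 and 66.2 CPM over the same stages, against 54.8 CPM. All 5 were highest in round spermatids, and at the elongating stage Tekt3 (31.5 CPM) and Tekt4 (59.0 CPM) were again near their WT somatic levels of 29.9 and 52.3 CPM.

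The dynein arm heavy chains split by gene. Dnah8, an outer arm motor, was at 1.85, 11.4, 12.9 and 87.3 CPM (70.2 to 107) in the KO gates, 47.2 times its somatic level (31.2 to 73.1). In WT it was at 207 CPM in somatic cells, 396 CPM in late prophase, 2961 CPM in pachytene cells, 712 CPM in round and 174 CPM in elongating spermatids. Dnah17, the other outer arm chain of sperm, had 0 UMIs in KO late prophase and was at 434 CPM in WT pachytene cells. Dnah1, an inner arm chain, had 8 UMIs in KO late prophase (7.76 CPM, 3.35 to 15.3) and was already at 5.54 CPM in spermatogonia and 6.87 CPM in early prophase, against 0.462 CPM in somatic cells. Dnah2, also of the inner arms, was at 6.79 CPM in KO late prophase and at 12.2 CPM in KO somatic cells, where Leydig cells were highest at 36.3 CPM. All 4 were at least 2-fold higher in WT pachytene cells than in spermatids. The intermediate chain gene listed as Dnaic1 was at 22.3 CPM in KO late prophase against 0.289 CPM in KO somatic cells and met the rule for a call, and Dnaic2 had 0 UMIs.

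Genes of the radial spokes and the central pair, with their cargo partners, were 5 of 10 called, and their KO late prophase sum was 1272 CPM (1204 to 1343), 11.4 times that of somatic cells. Rsph1, a radial spoke head protein, was at 53.0 CPM in KO somatic cells, 11.9 CPM in spermatogonia, 27.5 CPM in early prophase and 869 CPM (813 to 928, 896 UMIs) in late prophase. That was 31.7 times the early prophase level and the largest count of any member in the gate. In WT it was at 319, 227, 283 and 1495 CPM in the matching gates, 3343 CPM in pachytene cells, 1058 CPM in round and 250 CPM in elongating spermatids. Rsph9, a second spoke head gene, was at 5.82 CPM in KO late prophase and 3.64 CPM in somatic cells, and was not called. Rsph4a, the spoke head gene known from motile cilia, stayed at or below 4.95 CPM in every gate of both libraries. So of the 3 spoke head genes only Rsph1 was called in KO late prophase.

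Meig1, which acts in cargo transport along the spermatid manchette, was at 48.6, 13.2, 20.6 and 369 CPM (333 to 408) in the 4 KO gates. In WT it was at 792 CPM in somatic cells, 1916 CPM in late prophase, 4963 CPM in pachytene cells, 4189 CPM in round and 3980 CPM in elongating spermatids. Rsph1 and Meig1 also had UMIs in KO Sertoli cells, at 85.6 and 80.3 CPM, which was 8.82 and 11.0 times the level in Leydig cells. The central pair genes Spag16, Spag17 and Hydin were at 5.82, 5.82 and 0 CPM in KO late prophase, and at 173, 827 and 204 CPM in WT pachytene cells. Of these, Spag17 was called in KO on 6 UMIs, against 0.231 CPM in somatic cells, and Spag16 was not, since its somatic level was 2.02 CPM. Spef2, which links the central pair with transport, and Cfap61, of the spoke base, were called on 8 and 4 UMIs. Cfap206, of the spoke base as well, also had 4 UMIs but was not called, since the intervals of its KO late prophase (1.06 to 9.94) and somatic (0.317 to 1.14) CPM touched.

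Among the 7 remaining genes, named for cilia and flagella or acting in assembly, 4 were called. Cfap69, needed for the midpiece, was at 2.02, 5.81, 5.15 and 40.8 CPM (29.4 to 55.1) in KO and at 144 CPM in WT late prophase, against 59.8 CPM in WT somatic cells. Cfap65, a central pair gene, was at 11.6 CPM (12 UMIs) against 0.116 CPM in KO somatic cells. Cfap43, whose product tethers dynein arms, was at 12.6 CPM (13 UMIs) against 4.39 CPM, while Cfap44, its partner in that tether, had 0 UMIs. Qrich2, a stabiliser of flagellar proteins, had 3 UMIs, and Armc2, which helps to bring in the central pair, had 1. Both stayed uncalled, and Armc2 was higher in KO somatic cells (6.06 CPM, with 9.49 CPM in Sertoli cells) than in any KO germ gate.

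Cfap47 was the 1 member called higher in KO than in WT late prophase (at least 2.0-fold, with the interval of the ratio above 1), beside 8.28% of the 9975 genes with at least 10 UMIs in the 2 gates. It is an X-linked gene for a central pair component. It was at 4.33 CPM in KO somatic cells, 3.70 CPM in spermatogonia, 3.43 CPM in early prophase and 131 CPM (110 to 155, 135 UMIs) in late prophase. In WT it had 2 UMIs in somatic cells, 0 UMIs in late prophase (upper bound 18.3 CPM), 3.85 CPM in pachytene cells, 48.5 CPM in round and 4.35 CPM in elongating spermatids. The KO level in late prophase was 8.82 times a floor of 3.0 UMIs in WT, with the exact interval of the ratio starting at 7.07. KO late prophase thus had more Cfap47 per UMI than any WT gate, and elongating spermatid markers made up 0.000194% of its UMIs. Akap4, the only other X-linked member, had 0 UMIs in the same KO cells.

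**Figure D3:**
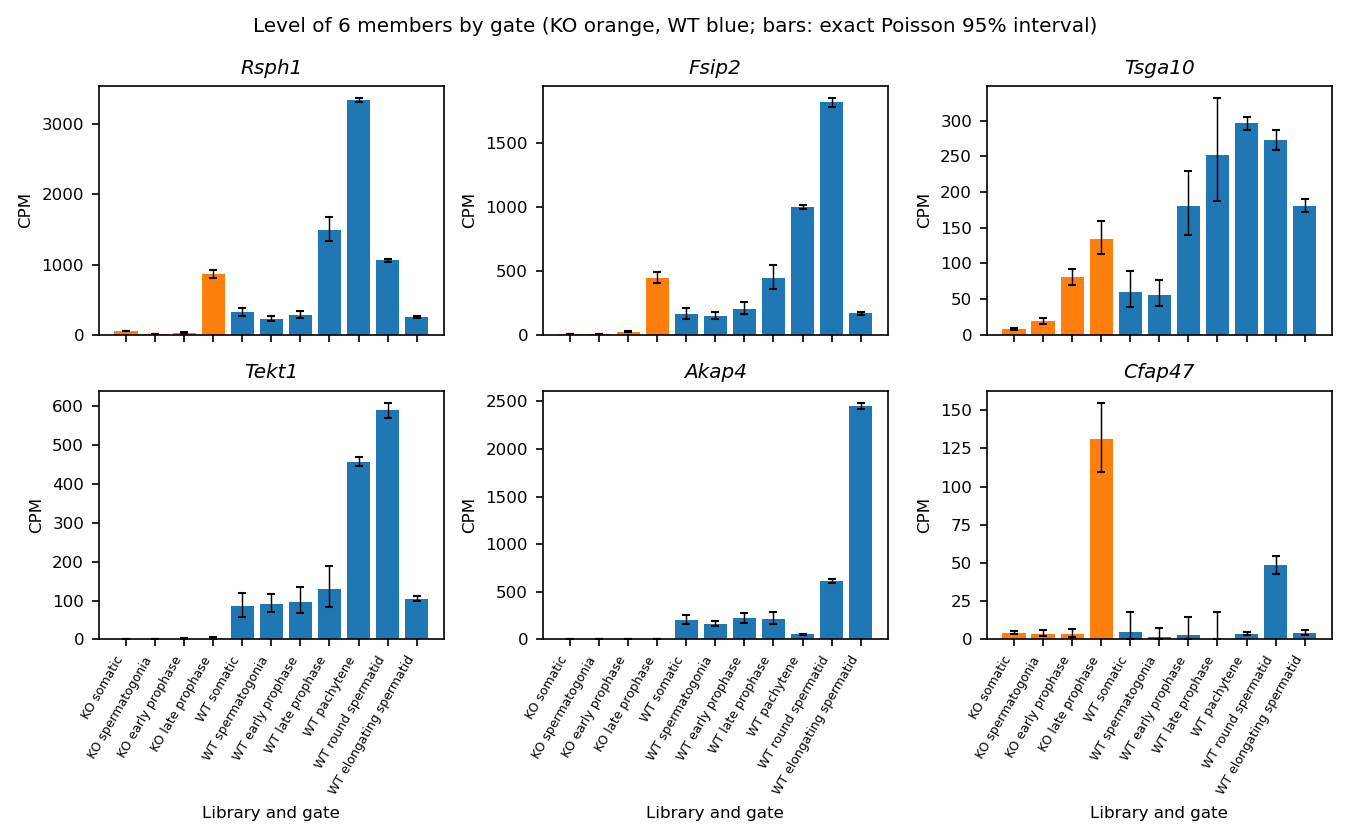
CPM of 6 members in 4 KO gates (orange) and 7 WT gates (blue), on linear axes from 0 with exact Poisson 95% intervals. Rsph1, Fsip2 and Tsga10 are seen in KO late prophase, Tekt1 and Akap4 are not, and Cfap47 is highest in KO late prophase at 131 CPM.

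Against KO, 32 of the 39 members were called higher in WT late prophase (82.1%, background 10.6%). Only 31 of the 39 had the 10 UMIs that the background share requires, so the 32 include calls on fewer. The count of 32 also includes whatever the WT library's background adds: the WT somatic sum of 5309 CPM alone was above the whole KO late prophase sum of 2757 CPM. With the somatic level of each library taken off, the summed level was 2507 CPM in KO and 4970 CPM in WT late prophase. Elongating spermatid markers made up 0.977% of UMIs in WT late prophase and 0.684% in WT somatic cells. The WT somatic level may thus be too low for that gate's background, which was not tested. The WT late prophase cells also had more pachytene marker UMIs, as given above, and a WT gate of 35 cells. How much of the difference in level is genotype, background or position within the stage cannot be told apart here.

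Position within the gate moved with the members in KO. The 186 KO late prophase cells were split at the median of their pachytene marker share into 93 and 93 cells, with 0.0996% and 0.263% of UMIs from those markers. The members' sum was 1520 CPM (1403 to 1644) in the lower and 3582 CPM (3434 to 3734) in the upper set. Rsph1 was at 354 and 1213 CPM, Fsip2 at 223 and 595 CPM, Meig1 at 124 and 532 CPM and Cfap47 at 87.3 and 160 CPM. Tsga10 ran the other way, at 204 CPM in the lower and 89.0 CPM in the upper set. The 35 WT cells split in the same way gave 8960 and 11381 CPM for the members' sum, and there Tsga10 was at 174 CPM in the lower and 318 CPM in the upper set. These sets were defined from the data, and the cells of each library come from 1 mouse.

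The signal was spread over most KO late prophase cells. When each cell was thinned to 1500 UMIs, 87.1% of 186 KO late prophase cells had a member UMI, against 33.0% of spermatogonia, 40.6% of early prophase, 37.9% of Sertoli and 22.0% of Leydig cells. Before thinning these shares were 95.7%, 77.5%, 74.8%, 67.4% and 64.0%, and the cells left out as shallower were 0, 6, 14, 597 and 27. Median depths were 4795 UMIs in KO late prophase, 5797 in spermatogonia, 4078 in early prophase, 5265 in Sertoli and 7423 in Leydig cells. Members made up 0.197% of the UMIs of the median KO late prophase cell, 0.0433% at the 10th and 0.462% at the 90th percentile. In WT every cell of the 7 gates compared had a member UMI, Sertoli cells included. For ciliated epithelium and rete testis, which share axoneme genes, 9 of 11 markers had 0 UMIs in KO late prophase. The ciliated list summed to 0.00116% of UMIs there and 0.000393% in KO somatic cells. Deup1 had 12 UMIs and Cldn4 had 1, and Foxj1, the main driver of motile cilia, had 0.

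**Figure D4:**
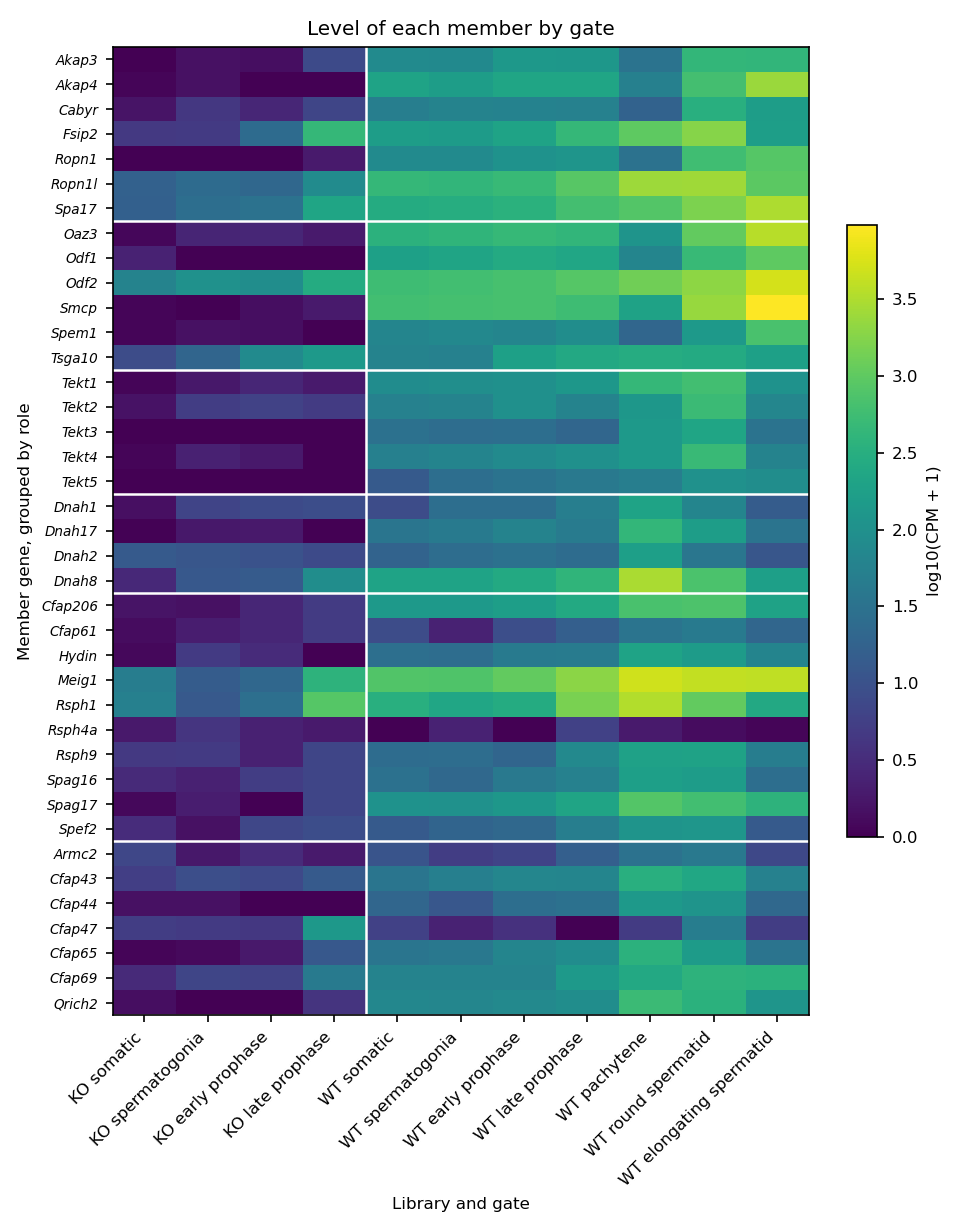
Level of each of the 39 members, as log10(CPM + 1), by library and gate, with white lines between role groups. The KO late prophase column shows Rsph1, Fsip2, Meig1, Odf2 and Spa17 above 200 CPM and Akap4, Odf1 and Spem1 at 0, while the WT somatic column is lit for nearly all members.

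WT gave the order of the later stages. A member's first WT stage was the earliest at which it had at least 10% of its peak CPM and the lower bound of its interval stood above the upper bound of WT somatic cells. A start hidden under the WT somatic level can be missed by this rule, and no share over all genes is given for it. A start can also be set too early where a germ gate holds more background than somatic cells. Elongating spermatid markers made up 0.973% of UMIs in WT early and 0.977% in WT late prophase, against 0.684% in somatic cells. By that rule 2 members began in early prophase (Tsga10 and Meig1), 10 in late prophase, 17 in pachytene cells and 9 in round spermatids, and Rsph4a had no first stage. In KO early prophase Tsga10 was called, but Meig1 was at 20.6 CPM, below its 48.6 CPM in KO somatic cells. All 5 tektins began in pachytene cells, as did Dnah2, Dnah17, Hydin, Spag16 and Qrich2. The 9 that began in round spermatids were Akap3, Akap4, Cabyr, Ropn1, Odf1, Smcp, Oaz3, Spem1 and Cfap47. Of the 12 that began by late prophase in WT, 11 were also among the 18 called in KO late prophase, Cfap206 being the exception, and 7 of the other 27 were called there as well. Those 7 included Akap3, Cabyr and Cfap47 of the round spermatid set. Peak levels fell in pachytene cells for 14 members, in round spermatids for 16, in elongating spermatids for 8 and, on 1 UMI, in late prophase for Rsph4a.

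The members were not richer than all genes in either direction between pachytene cells and spermatids. Relative to pachytene cells, 11 members were at least 2.0 times higher in spermatids (28.2%, background 35.4%) and 12 were at least 2.0 times higher in pachytene cells (30.8%, background 40.3%). The spermatid set was Akap3, Akap4, Cabyr, Ropn1, Spa17, Odf1, Odf2, Smcp, Oaz3, Spem1 and Cfap47, so it held 10 of the 13 genes of the sheath and fibre groups and no dynein or spoke gene. Pooled over both kinds of spermatid it held no tektin, but in round spermatids alone Tekt2, Tekt4 and Tekt5 were 4.17, 3.64 and 2.04 times the pachytene level. Of these 11, 5 were called in KO late prophase (Akap3, Cabyr, Spa17, Odf2 and Cfap47), the other 6 were not. In WT pachytene cells 29 members were called over somatic cells (74.4%, background 17.2%), and 21 were called over WT late prophase (53.8%, background 8.27%). In WT late prophase 7 members were called over somatic cells (17.9%, background 14.6%), namely Spa17, Fsip2, Tsga10, Dnah1, Rsph1, Meig1 and Cfap69, and all 7 were among the 18 of KO. That count was 15 or 16 with 10% or 20% of the library profile taken off each gate, and 3 at 4-fold or with clusters in place of gates. Against WT spermatogonia in place of somatic cells, 9 members were called in WT late prophase (23.1%, background 9.02%).

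Other genes of the tail were read by the same rule in KO late prophase, beside the same background of 20.4%. Of 39 further axoneme genes found, 14 were called, among them the inner arm dyneins Dnah7a (42.7 against 0.924 CPM in somatic cells) and Dnah12 (19.4 against 0.289 CPM), the dynein regulator Drc3 (9.70 against 0.924 CPM) and Cfap57 (18.4 against 1.04 CPM). Of 26 genes for dynein preassembly and intraflagellar transport, the carrier system that builds cilia, 19 were called, with Ttc26 at 79.6 against 4.16 CPM, Ift80 at 86.4 against 11.2 CPM, Ift81 at 124 against 15.9 CPM and Ttc21a at 17.5 against 1.5 CPM. Only 1 of those 26 was at least 2-fold higher in spermatids than in pachytene cells (background 35.4%), and 16 were lower by as much (background 40.3%). Of 29 further genes of the sheath, fibres and head-tail junction, 8 were called, led by Ccdc136 (209 against 5.20 CPM), and Hook1, a motor adaptor of the manchette, stood at 262 against 21.8 CPM. Fsip1 was at 30.1 against 2.31 CPM and Iqcg at 57.2 against 5.66 CPM, and 19 of the 29 leaned to spermatids by at least 2-fold (background 35.4%). The share called thus ran from 19 of 26 in the transport list to 8 of 29 in the sheath list. Genes with at least 10 UMIs, the only ones in the background share, were 25 of the 26 in the transport list. They were 13 of the 29 in the sheath list and 18 of the 39 in the axoneme list. The lists thus differ in expression level, and the difference in share was not tested.

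Of 12 transcription factors known to control cilium or spermiogenesis genes, 8 were called in KO late prophase, beside the same background of 20.4%. Of the 12, 9 had the 10 UMIs that the background share requires. The RFX factors Rfx2 (38.8 CPM, 27.7 to 52.9, against 1.33 CPM in somatic cells), Rfx3 (36.9 against 10.5 CPM) and Rfx4 (3.88 against 0.231 CPM) were called, and Rfx1 (17.5 against 12.0 CPM) was not. Sox30 stood at 67.0 against 2.08 CPM, Tcfl5 at 67.9 against 3.12 CPM and Crem, the regulator of spermatid genes, at 40.8 against 18.0 CPM. Mybl1, the master factor of pachytene, was at 250 against 49.0 CPM, but it and Ovol1 (1.94 CPM, not called) are pachytene markers of the gates. Taf7l, an X-linked partner of the transcription machinery, was at 888 CPM (831 to 947) in KO and 139 CPM in WT late prophase. It was the 1 gene of this list called higher in KO, beside a background of 8.28%. Foxj1 had 0 UMIs in KO late prophase and Sox5 was lower there (4.85 CPM) than in somatic cells (44.2 CPM).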

How the data were processed

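The values are raw UMI counts of each gene in each barcode, as deposited. Per the file headers the authors made them with Cell Ranger 6.1.2. Seurat 4.3 and build GRCm39 also stand in the submitters' processing notes. The step that called barcodes as cells is not given in the sources used here. Barcodes with at least 500 genes and at most 20% mitochondrial UMIs were kept, 5400 of 5415 in WT (33096309 UMIs in all) and 6381 of 7118 in KO (28001992 UMIs in all). The libraries share 14 barcodes, and no doublet caller was used, but cells above set limits for markers of a second class stayed out of the gates. Germ gates still took cells with Sertoli or Leydig markers below 0.3% of UMIs. Sertoli markers made up 0.104% of UMIs in KO late prophase and 1.36% in KO Sertoli cells, so the KO germ gates hold some somatic RNA. In all 31.6% of WT and 22.1% of KO cells stayed out. Cut-offs of the gates were chosen after marker values were seen, and the members and lists were chosen with earlier results of these data known. UMIs were summed per library and gate and scaled to CPM. Poisson and conditional binomial 95% intervals are exact. No test was made, since cells are not replicates. Named were all members, every gene of the regulator list, and per further list the 4 called genes with the largest ratio to somatic cells and at least 20 UMIs over both classes. One gene of a further list is not reported here and was left out of its counts. Scripts used Python 3.11.15, scipy 1.17.1 and scanpy 1.11.5, and the calling rule was tested on simulated data. Promoter sequences are from RefSeq, GRCm38.p6, and no coordinate of the count files' build is printed.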

Additional observations from a re-analysis of the deposited data

How the results depend on the processing

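Of 72 values recomputed under other settings, 61 stayed within 1.5 times the main count or within the interval of the main ratio, 11 moved beyond, and 0 changed direction. The count of members called in KO late prophase went from 18 to 11 against each single somatic type, an alternative chosen after seeing the data. The count in WT late prophase went from 7 to 15 and 16 with 10% and 20% of the library profile taken off each gate as free RNA, and to 3 both at 4-fold and with clusters in place of gates. The KO ratio of 11.1 became 12.9 and 15.1 with 10% and 20% taken off, 11.8 with clusters, 10.2 without the cells of the top 5% of UMIs, 12.6 with doubled marker minimums, and 7.43 without Rsph1, Fsip2 and Meig1. The count of members first seen by late prophase in WT was 12 and ranged from 8 (clusters) to 16, and that of members leaning to spermatids was 11 and ranged from 9 to 14. Apart from removed genes or a stricter fold, the cause of these shifts was not tested. The count called higher in KO was 1 under each of the 13 alternatives run. No paired analysis was possible because each genotype has 1 library and the labels carry no replicate numbers. Depth limits both late prophase gates: 0 UMIs allows up to 3.58 CPM in KO (1030590 UMIs) and 18.3 CPM in WT (201954 UMIs).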
